A study of Homo sapiens with 18 samples.

Results

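The lysosome and autophagy genes described here are 51 human genes, taken by their symbols as rows of a deposited count table of 56303 genes. They cover the enzymes and membrane proteins of the lysosome, the transcription factors and nutrient-sensing GTPases that act at its surface, and the proteins that form autophagosomes and load them with cargo. RNA sequencing had been run on wild-type cells of the ovarian cancer lines SKOV3 and A2780 after exposure to 20 mg/L or 40 mg/L daphnetin, a plant dihydroxycoumarin, or to the solvent DMSO. Each of the 6 groups held 3 libraries: SKOV3 with DMSO, 20 mg/L and 40 mg/L, and A2780 with DMSO, 20 mg/L and 40 mg/L. The labels name ovarian tissue as the source, give no duration of exposure, and list a different culture medium for each line, so line and medium cannot be told apart. Total counts ran from 35105152 to 44132931 in SKOV3 libraries and from 30016475 to 37220879 in A2780 libraries. Mitochondrial genes took 4.36% to 5.23% of counts in SKOV3 and 10.6% to 16.5% in A2780. ERBB2, which is amplified in SKOV3, had 2757 ± 69 CPM in SKOV3 DMSO libraries and 64.6 ± 0.812 CPM in A2780 DMSO libraries (CPM, counts scaled to library size, mean ± SD, n = 3 each). Of the epithelial and ovarian markers, PAX8, KRT8, KRT18 and EPCAM each averaged over 50 CPM in SKOV3 DMSO libraries and under 4 CPM in A2780 DMSO libraries, while WT1 averaged 0.314 CPM or less in every group. Of the markers of other cells, PTPRC, CD14, CD3E, MS4A1 and LYZ (immune), VWF and CDH5 (endothelial) and ALB (liver) averaged 0.431 CPM or less in every group. The endothelial marker PECAM1 averaged 3.12 CPM with DMSO, 4.35 CPM at 20 mg/L and 0.924 CPM at 40 mg/L in SKOV3, and 0.059 CPM or less in A2780. CD68, a lysosomal glycoprotein used as a macrophage marker, averaged 74.4, 86.1 and 96.7 CPM over those SKOV3 groups and 4.4, 4.27 and 4.75 CPM over the A2780 groups. Among fibroblast markers, COL1A1 averaged 378 CPM in SKOV3 and 19.3 CPM in A2780 DMSO libraries, DCN 2.54 and 83.2 CPM, LUM 3.57 and 48.8 CPM, and PDGFRB 1.23 and 8.99 CPM. In SKOV3 at 40 mg/L these averaged 310 CPM for COL1A1, 1.18 CPM for DCN, 1.12 CPM for LUM and 0.337 CPM for PDGFRB. The part of these markers in the results was not tested.

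Lysosomes are acidic organelles in which hydrolases break down material delivered by endocytosis and by autophagy, the process that wraps cytoplasmic cargo in a double membrane. The transcription factors TFEB, TFE3 and MITF switch on many genes of both processes when they enter the nucleus. Active mTORC1, recruited to the lysosome by RAG GTPases, holds these factors in the cytoplasm, and folliculin with its FNIP partners activates the RAG GTPases that present them to mTORC1. RNA abundance does not measure lysosomal activity or autophagic flux.

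In each line taken alone, transcript levels of most of these genes were higher at 40 mg/L daphnetin. Of the 50 genes tested in both lines, 25 were called higher in both, and the share of all genes called higher in both was not counted. In SKOV3, 33 members were called higher and 5 lower of 51 tested at 40 mg/L against DMSO, where 52.1% of all 21936 tested genes were called (26.4% higher and 25.6% lower). In A2780, 34 were called higher and 0 lower of 50 tested at that dose, where 36.9% of all 20593 genes were called (17.7% higher and 19.2% lower). Genes with an adjusted p below 0.05 in edgeR's quasi-likelihood test are named as called. The median log2 fold change of the members was 0.26 in SKOV3 and 0.42 in A2780, beside 0.01 in SKOV3 and -0.01 in A2780 over all genes tested. DESeq2 likewise called 0 members lower in A2780 at 40 mg/L, 3 members (GAA, ATG7 and ATG16L1) were lower at an unadjusted p under 0.05, and leaving out replicate 1, 2 or 3 at 40 mg/L gave 1 lower call each time.

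At the lower dose fewer members were called in SKOV3 than in A2780. At 20 mg/L, 8 members were called higher and 2 lower of 51 in SKOV3 (10.1% of all genes called, 5.16% higher and 4.95% lower), with a median log2 of 0.05. In A2780, 27 were called higher and 4 lower of 50 (36.9% of all genes called, 18.1% higher and 18.9% lower), with a median log2 of 0.32. Between 40 and 20 mg/L, SKOV3 had 31 members called higher and 7 lower (47.4% of all genes called, 23.2% higher and 24.2% lower). A2780 had 6 higher and 2 lower in that step (14.6% of all genes called, 6.71% higher and 7.85% lower). The 2 doses of a line were compared with the same 3 DMSO libraries, so their values are not independent. Of the 8 SKOV3 calls in the higher direction at 20 mg/L, 2 (SQSTM1 and CTSD) were kept with any 1 library left out, and the count was 5 without DMSO replicate 1 and 3 without DMSO replicate 3. The lower count at that dose was 1 without replicate 1 or 2 at 20 mg/L or DMSO replicate 2 or 3. In the step between the doses, SKOV3 had 4 lower calls without replicate 2 at 20 mg/L or replicate 1 or 2 at 40 mg/L. A2780 had 3 higher calls in that step without replicate 1 at 20 mg/L, 1 without replicate 3 at 20 mg/L, and 2 without replicate 2 or 3 at 40 mg/L. Its lower calls were 1 without replicate 2 or 3 at 20 mg/L or replicate 2 at 40 mg/L.

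**Figure D1:**
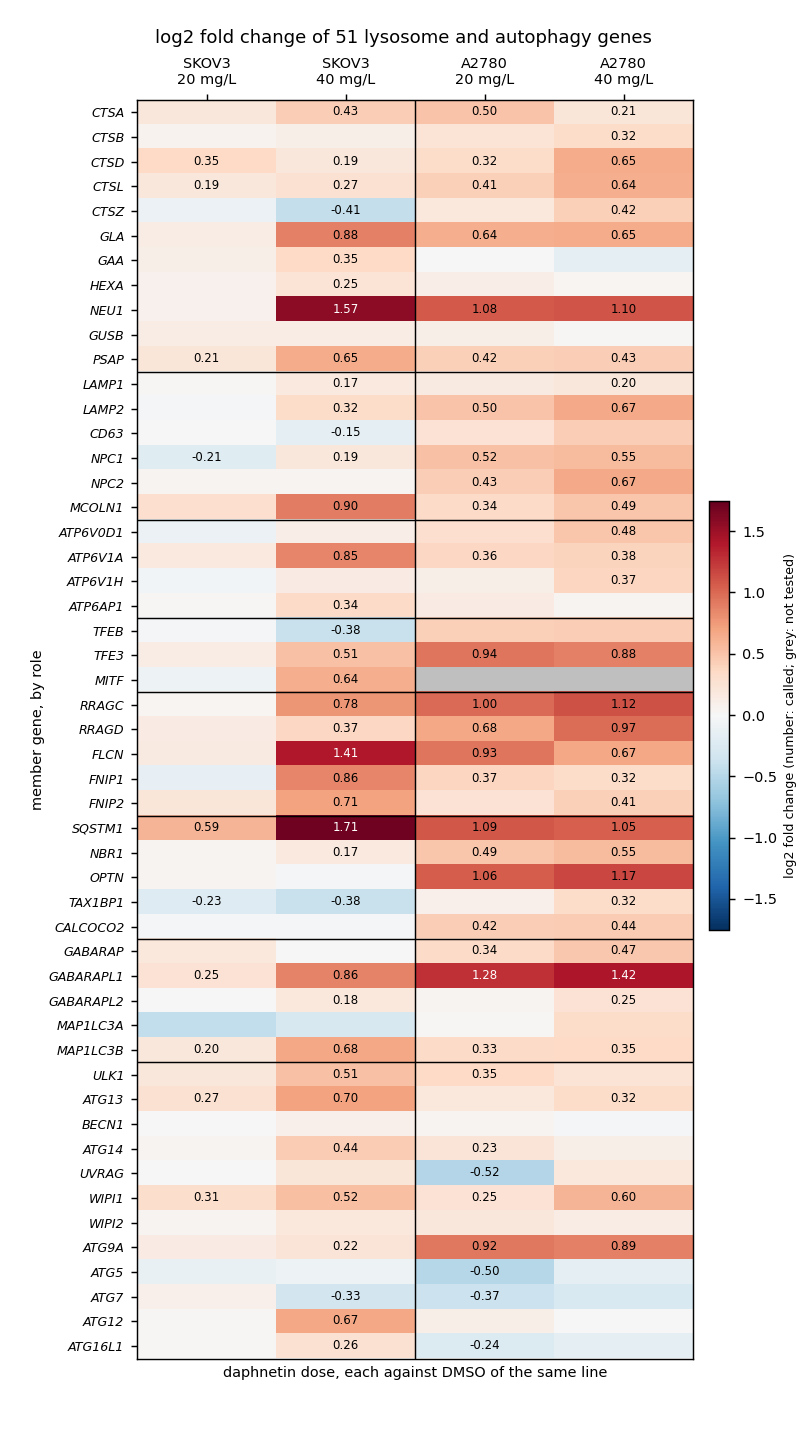
Log2 fold change of the 51 genes, in rows ordered by role with a line between roles, for each dose against DMSO of the same line (columns). A number marks a called change and grey marks MITF, which was not tested in A2780. The SKOV3 column at 20 mg/L is mostly pale and holds 10 called values, and the A2780 columns hold 31 and 34.

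The summed counts of the 51 genes made up 0.445% ± 0.00539 of all counts in SKOV3 DMSO libraries, 0.485% ± 0.013 at 20 mg/L and 0.571% ± 0.00953 at 40 mg/L (SD, n = 3 each). In A2780 the share was 0.219% ± 0.0081 with DMSO, 0.315% ± 0.0261 at 20 mg/L and 0.329% ± 0.0116 at 40 mg/L. Daphnetin and DMSO libraries did not overlap in either line. Abundant members weigh most in this sum. In SKOV3, PSAP averaged 670.5 CPM with DMSO and 1045 CPM at 40 mg/L, and SQSTM1 165 and 537 CPM. The A2780 libraries with the lowest mitochondrial share, replicate 2 at 20 mg/L with 11.1% and replicate 1 at 40 mg/L with 10.6%, had the highest member shares of their groups, 0.345% and 0.341%. Without both, the members called in A2780 were 26 higher and 4 lower at 20 mg/L and 33 higher and 1 lower at 40 mg/L. In bulk RNA, more cells with a given level and more RNA per cell cannot be told apart.

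**Figure D2:**
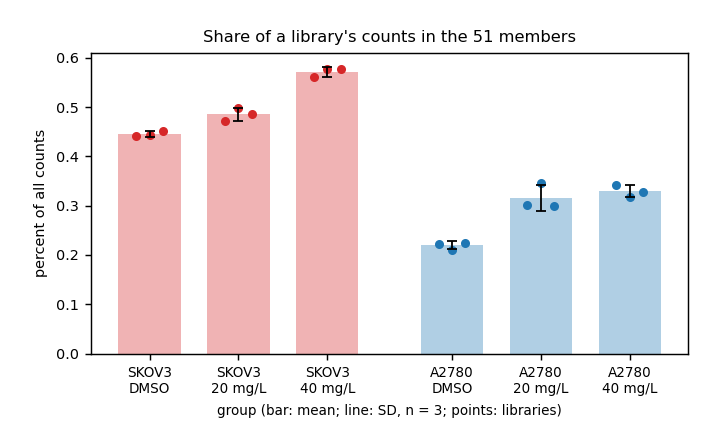
Percent of each library's counts that fell in the 51 genes, by group; bars are means, lines are SD of 3 libraries and points are libraries. All daphnetin libraries lie above the DMSO libraries of their line, and SKOV3 libraries lie above all A2780 libraries.

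The genes of the pathway that TFEB, TFE3 and MITF are known to switch on often carry the E-box CACGTG near their start, so promoters of the members were searched for it. RefSeq promoters of build GRCh38.p14, which run from 250 bases before to 50 bases after the start, were found for 42 of the 51 members. The E-box, which reads the same on both strands, stood in 11 of these 42 promoters (26.2%). It stood in 8.19% of the 22411 promoters whose gene symbol is in the count table, and in 7.26% of all 35116 promoters of this length. With a T before and an A after it, it stood in 5 member promoters (11.9%) and in 0.98% of all. The antioxidant response element core TGACNNNGC, which NRF2 binds, was found on either strand in 12 member promoters (28.6%) and in 13.3% of all. Of its 14 matches in the members, 3 overlapped an E-box. Stretches of 70 bases are given for 2 strongly raised members with an E-box, NEU1 and RRAGC, and for LAMP1 and MCOLN1, which hold several, each 5′ to 3′ on the strand of the gene with the E-box in capitals.
NEU1 (chr6:31862910-31862979, minus strand): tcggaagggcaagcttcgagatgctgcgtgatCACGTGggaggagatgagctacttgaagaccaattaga
RRAGC (chr1:38859847-38859916, minus strand): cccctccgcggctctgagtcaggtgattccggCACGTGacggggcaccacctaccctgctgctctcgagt
LAMP1 (chr13:113297040-113297109, plus strand): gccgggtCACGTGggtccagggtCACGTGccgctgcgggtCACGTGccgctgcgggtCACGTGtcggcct
MCOLN1 (chr19:7522554-7522623, plus strand): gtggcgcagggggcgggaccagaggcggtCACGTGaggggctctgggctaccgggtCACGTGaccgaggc
LAMP1 held 6 E-boxes in its promoter, the most of any member, 4 of them in the stretch shown. SQSTM1, which had the highest fold change of any member in SKOV3, and GABARAPL1 and OPTN, which had the highest in A2780, held no such letters in this window. In SKOV3 at 40 mg/L the median log2 fold change was 0.43 over the 11 members with an E-box and 0.22 over the 31 without. In A2780 at 40 mg/L it was 0.43 over the 11 with and 0.42 over the 30 without. Split by the antioxidant response element core, the SKOV3 median was 0.31 over the 12 with and 0.24 over the 30 without. The A2780 median was 0.43 over the 12 with and 0.43 over the 29 without. A match describes letters in a window and is not a measured binding site.

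The 3 transcription factors did not move together. TFE3 was called higher in both lines, MITF was called higher in SKOV3 and was nearly undetected in A2780, and TFEB was called lower in SKOV3 at 40 mg/L. TFE3 stood at 29.2, 31.7 and 28.4 CPM in SKOV3 DMSO libraries, 34.6, 32.3 and 30.5 CPM at 20 mg/L and 43.1, 42.4 and 41.2 CPM at 40 mg/L. In A2780 it stood at 21.3, 26.02 and 22.7 CPM with DMSO, 46.1, 45.7 and 43.1 CPM at 20 mg/L and 43.9, 42.8 and 43.5 CPM at 40 mg/L. All treated A2780 libraries and all 40 mg/L SKOV3 libraries were above their DMSO libraries. TFE3 rose at 40 mg/L in SKOV3 (log2 0.51, SE 0.06, adjusted p = 1.92e-08) and, with values that barely differed between the doses, in A2780 at 20 mg/L (log2 0.94, SE 0.08, adjusted p = 5.7e-11) and 40 mg/L (log2 0.88, SE 0.08, adjusted p = 2.34e-10).

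TFEB, the best studied of these factors in lysosome biogenesis, had 9.66, 9.56 and 10.9 CPM in SKOV3 DMSO libraries, 9.37, 10.2 and 10.1 CPM at 20 mg/L and 7.74, 7.35 and 7.91 CPM at 40 mg/L. The 40 mg/L libraries lay below all other SKOV3 libraries, a fall that passed the test (log2 -0.38, SE 0.10, adjusted p = 0.00103). In A2780 TFEB had 1.77, 2.15 and 1.84 CPM with DMSO, 2.82, 3.18 and 1.77 CPM at 20 mg/L and 2.24, 2.39 and 3.22 CPM at 40 mg/L. Its A2780 change was not called at 20 mg/L (log2 0.42, SE 0.21, adjusted p = 0.128) or at 40 mg/L (log2 0.43, SE 0.21, adjusted p = 0.123), and without replicate 3 at 20 mg/L the value at that dose was log2 0.62 with an adjusted p of 0.0246. MITF, known for its part in melanocytes, had 18.9, 19.2 and 21.4 CPM in SKOV3 DMSO libraries, 17.7, 19.1 and 19.1 CPM at 20 mg/L and 30.6, 30.4 and 31.3 CPM at 40 mg/L, and the 40 mg/L libraries were the highest (log2 0.64, SE 0.07, adjusted p = 1.3e-09). In A2780 no library exceeded 0.342 CPM of MITF, which left it out of the test.

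Every gene of the RAG GTPase and folliculin branch was called higher in both lines at 40 mg/L. These were 5 of 5 in SKOV3 with a median log2 of 0.78, and 5 of 5 in A2780 with a median of 0.67. Over all genes, 26.4% were called higher in SKOV3 and 17.7% in A2780. FLCN (folliculin, chr17:17212212-17237188, minus strand) had 6.97, 6.04 and 6.63 CPM in SKOV3 DMSO libraries, 7.23, 7.63 and 7.19 CPM at 20 mg/L and 19.5, 17.1 and 15.4 CPM at 40 mg/L. In A2780 it had 18.9, 16.5 and 19.9 CPM with DMSO, 33.96, 37.6 and 34.3 CPM at 20 mg/L and 32.5, 27.2 and 29.6 CPM at 40 mg/L. No daphnetin library overlapped DMSO in either line, although the small SKOV3 difference at 20 mg/L was not called (log2 0.16, SE 0.10, adjusted p = 0.396). The rise at 40 mg/L was 2.65-fold in SKOV3 (log2 1.41, SE 0.10, adjusted p = 3.57e-14) and 1.6-fold in A2780 (log2 0.67, SE 0.09, adjusted p = 3e-07). In A2780 FLCN stood lower at 40 than at 20 mg/L (log2 -0.26, SE 0.08, adjusted p = 0.0342), a call lost without replicate 2 (adjusted p = 0.109) or 3 (0.0726) at 20 mg/L and without replicate 2 (0.208) or 3 (0.112) at 40 mg/L. An annotated transcript on the same strand, RP11-45M22.4, overlaps 11.9% of FLCN's exonic bases and moved by log2 1.52 in SKOV3 and 0.55 in A2780 at 40 mg/L, and the assignment of reads in the overlap is not stated in the labels.

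RRAGC and RRAGD encode the RAG subunits C and D, which bring TFEB and TFE3 to mTORC1. RRAGC had 29.3, 27.6 and 30.01 CPM in SKOV3 DMSO libraries, 30.3, 27.5 and 31.7 CPM at 20 mg/L and 49.3, 49.5 and 49.7 CPM at 40 mg/L. In A2780 it had 18.4, 16.4 and 18.8 CPM with DMSO, 36.1, 37.02 and 34.5 CPM at 20 mg/L and 38.03, 37.8 and 42.05 CPM at 40 mg/L. The SKOV3 libraries at 20 mg/L lay on both sides of the DMSO range and those at 40 mg/L lay above both groups (log2 0.78, SE 0.06, adjusted p = 1.03e-12), whereas A2780 had its rise at 20 mg/L (log2 1.00, SE 0.08, adjusted p = 2.86e-11) and kept it at 40 mg/L (log2 1.12, SE 0.08, adjusted p = 3.03e-12). A same-strand transcript, RP5-864K19.7, overlaps 22.9% of the exonic bases of RRAGC and moved by log2 0.44 in SKOV3 and 0.84 in A2780 at 40 mg/L. RRAGD had 21.8, 21.6 and 23.3 CPM in SKOV3 DMSO libraries, 25.6, 23.2 and 25.3 CPM at 20 mg/L and 26.1, 28.9 and 30.8 CPM at 40 mg/L. It had 8.71, 7.02 and 6.78 CPM with DMSO, 12.4, 13.2 and 10.8 CPM at 20 mg/L and 15.4, 14.2 and 15.3 CPM at 40 mg/L in A2780. Its rise at 40 mg/L was 1.29-fold in SKOV3 (log2 0.37, SE 0.07, adjusted p = 4.68e-05) and 1.96-fold in A2780 (log2 0.97, SE 0.11, adjusted p = 4.19e-08), without overlap with DMSO in either line.

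FNIP1 and FNIP2 encode the partners of folliculin. FNIP1 had 20.1, 20.4 and 22.6 CPM in SKOV3 DMSO libraries, 18.9, 18.3 and 20.3 CPM at 20 mg/L and 37.4, 42.2 and 34.5 CPM at 40 mg/L. In A2780 it had 54.7, 57.8 and 54.01 CPM with DMSO, 71.9, 72.9 and 72.2 CPM at 20 mg/L and 71.8, 68.3 and 70.7 CPM at 40 mg/L. The SKOV3 libraries at 40 mg/L lay above all others of that line (log2 0.86, SE 0.07, adjusted p = 6.63e-12), and in A2780 both doses lay above DMSO (log2 0.37, SE 0.06, adjusted p = 2.5e-05 at 20 mg/L; log2 0.32, SE 0.06, adjusted p = 0.00017 at 40 mg/L). FNIP2 had 5.44, 3.78 and 5.75 CPM in SKOV3 DMSO libraries, 6.07, 6.19 and 5.12 CPM at 20 mg/L and 8.55, 7.71 and 8.24 CPM at 40 mg/L. Its A2780 libraries held 9.85, 7.84 and 8.98 CPM with DMSO, 10.2, 11.4 and 10.4 CPM at 20 mg/L and 10.9, 13.01 and 12.1 CPM at 40 mg/L. With no overlap with DMSO, FNIP2 rose at 40 mg/L in SKOV3 (log2 0.71, SE 0.13, adjusted p = 1.53e-05) and in A2780 (log2 0.41, SE 0.11, adjusted p = 0.00332).

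Of the 11 lysosomal hydrolases and their cofactors, 8 were called higher and 1 lower in SKOV3 at 40 mg/L and 8 higher and 0 lower in A2780 at that dose. Over all genes the shares were 26.4% higher and 25.6% lower in SKOV3, and 17.7% and 19.2% in A2780. NEU1 (chr6:31857659-31862906, minus strand), the lysosomal sialidase, changed most in both lines. It had 7.92, 8.46 and 10.2 CPM in SKOV3 DMSO libraries, 9.26, 9.75 and 9.06 CPM at 20 mg/L and 26.1, 26.6 and 26.1 CPM at 40 mg/L. In A2780 NEU1 had 28.3, 24.8 and 25.1 CPM with DMSO, 52.2, 64.6 and 49.5 CPM at 20 mg/L and 57.99, 54.7 and 57.5 CPM at 40 mg/L. In SKOV3 the 20 mg/L libraries overlapped DMSO (log2 0.07, SE 0.09, adjusted p = 0.719) and the 40 mg/L libraries were 2.97 times as high as DMSO (log2 1.57, SE 0.09, adjusted p = 6.94e-17). In A2780 both doses were well clear of DMSO, 2.11-fold at 20 mg/L (log2 1.08, SE 0.08, adjusted p = 2.78e-11) and 2.15-fold at 40 mg/L (log2 1.10, SE 0.08, adjusted p = 1.92e-11). PPCA, encoded by CTSA, protects NEU1 in the lysosome. CTSA was called higher at 40 mg/L in SKOV3 (log2 0.43, SE 0.07, adjusted p = 2.64e-06) and in A2780 (log2 0.21, SE 0.07, adjusted p = 0.0131), the A2780 call being lost without replicate 1 at 40 mg/L (adjusted p = 0.143). Its A2780 level was 57.8 ± 0.68 CPM with DMSO, 82.1 ± 0.696 CPM at 20 mg/L and 67.9 ± 5.67 CPM at 40 mg/L (SD, n = 3 each). Genes on the opposite strand overlap 28.5% of the exonic bases of CTSA.

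GLA, alpha-galactosidase A, had 7.96, 7.84 and 7.599 CPM in SKOV3 DMSO libraries, 8.73, 7.89 and 9.01 CPM at 20 mg/L and 13.02, 14.3 and 15.6 CPM at 40 mg/L. In A2780 it had 14.2, 12.7 and 15.5 CPM with DMSO, 20.7, 24.6 and 21.2 CPM at 20 mg/L and 21.9, 21.5 and 23.7 CPM at 40 mg/L. It followed the dose pattern of NEU1, with a SKOV3 rise at 40 mg/L (log2 0.88, SE 0.09, adjusted p = 1.16e-09) and an A2780 rise of like size at 20 mg/L (log2 0.64, SE 0.09, adjusted p = 2.45e-06) and 40 mg/L (log2 0.65, SE 0.09, adjusted p = 2.12e-06). CTSD, the aspartic protease cathepsin D, had 105, 114 and 106 CPM in SKOV3 DMSO libraries, 120.0, 156 and 140.4 CPM at 20 mg/L and 120.2, 122 and 128 CPM at 40 mg/L. A2780 libraries had 18.98, 14.97 and 14.2 CPM of CTSD with DMSO, 20.6, 22.2 and 17.8 CPM at 20 mg/L and 23.2, 24.7 and 28.8 CPM at 40 mg/L. Daphnetin libraries lay above DMSO at both doses in SKOV3 and at 40 mg/L in A2780, and overlapped DMSO at 20 mg/L in A2780. CTSD was called higher at both doses in SKOV3 (log2 0.35, SE 0.06, adjusted p = 0.000158 at 20 mg/L; log2 0.19, SE 0.06, adjusted p = 0.0107 at 40 mg/L) and in A2780 at 40 mg/L (log2 0.65, SE 0.10, adjusted p = 1.74e-05). The SKOV3 call at 40 mg/L was lost without replicate 3 at that dose (adjusted p = 0.0682) and without DMSO replicate 1 (0.0619) or 3 (0.052). The A2780 value at 20 mg/L (log2 0.32, SE 0.11, adjusted p = 0.0185) was not called without replicate 2 at that dose (0.101) or without DMSO replicate 2 (0.0692) or 3 (0.0968). A same-strand transcript, RP11-295K3.1, overlaps 41.7% of the exonic bases of CTSD and moved by log2 0.66 in A2780 and 0.23 in SKOV3 at 40 mg/L.

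Among the other hydrolases, PSAP, whose product is cut into the saposins that help degrade sphingolipids, was called higher in all 4 dose comparisons and had the highest level per length of any member in SKOV3. Its SKOV3 level was 670.5 ± 20.2 CPM with DMSO, 779 ± 71.9 CPM at 20 mg/L and 1045 ± 31.8 CPM at 40 mg/L (SD, n = 3). CTSL, a cysteine protease, was also called in all 4, at log2 0.27 in SKOV3 and 0.64 in A2780 at 40 mg/L. The call at 20 mg/L in SKOV3 was lost for PSAP without replicate 2 at that dose (adjusted p = 0.137) or DMSO replicate 2 (0.0886), and for CTSL without replicate 2 (0.0994) or 3 (0.0716) at that dose or DMSO replicate 1 (0.148) or 3 (0.0736). CTSZ, another cathepsin, went opposite ways, at 101, 94.9 and 110.0 CPM at 40 mg/L against 132, 139 and 137 CPM with DMSO in SKOV3 (log2 -0.41, SE 0.06, adjusted p = 2.97e-07), and 63, 52.5 and 59.97 CPM at 40 mg/L against 47.5, 39.5 and 42.3 CPM with DMSO in A2780 (log2 0.42, SE 0.10, adjusted p = 0.00407). GAA and HEXA, which degrade glycogen and gangliosides, were called higher only in SKOV3 at 40 mg/L, at log2 0.35 and 0.25; the difference between lines was called for GAA and not for HEXA (log2 0.19, adjusted p = 0.162). CTSB was called in A2780 at 40 mg/L alone (log2 0.32, SE 0.10, adjusted p = 0.0247), and that call was lost without replicate 1 (adjusted p = 0.114) or 3 (0.0693) at 40 mg/L or DMSO replicate 2 (0.0571) or 3 (0.0577). GUSB was not called in any of the 4 comparisons, with log2 values from 0.02 to 0.13.

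Among the 6 lysosomal membrane and lipid export genes, SKOV3 had 4 higher and 1 lower calls and A2780 had 5 higher calls at 40 mg/L. Of all genes, 26.4% were called higher and 25.6% lower in SKOV3, and 17.7% and 19.2% in A2780. LAMP1, a common marker of the lysosomal membrane, changed little. It had 53.98, 60.05 and 57.5 CPM in SKOV3 DMSO libraries, 54.3, 60.8 and 60.1 CPM at 20 mg/L and 63.1, 65.1 and 64.5 CPM at 40 mg/L. In A2780 it had 67.6, 58.9 and 63.8 CPM with DMSO, 67.9, 80.9 and 64.97 CPM at 20 mg/L and 76.4, 71.6 and 73.6 CPM at 40 mg/L. The 40 mg/L libraries lay just above DMSO in both lines, and those at 20 mg/L overlapped it. The rise at 40 mg/L was 1.13-fold in SKOV3 (log2 0.17, SE 0.06, adjusted p = 0.00994) and 1.15-fold in A2780 (log2 0.20, SE 0.07, adjusted p = 0.0346). The LAMP1 call in SKOV3 was lost when DMSO replicate 1 was left out (adjusted p = 0.097), and the A2780 call without replicate 1 (0.13) or 3 (0.0744) at 40 mg/L or DMSO replicate 2 (0.124) or 3 (0.0557). LAMP2, a membrane protein that one form of autophagy uses as a receptor, had 34.5, 31.98 and 34.1 CPM in SKOV3 DMSO libraries, 32.4, 34.1 and 32.2 CPM at 20 mg/L and 39.04, 44.5 and 41.96 CPM at 40 mg/L. Its A2780 libraries had 20.9, 17.2 and 19.6 CPM with DMSO, 25.2, 33.8 and 23.1 CPM at 20 mg/L and 31.6, 29.3 and 31.8 CPM at 40 mg/L. Apart from SKOV3 at 20 mg/L, no daphnetin group overlapped DMSO. LAMP2 rose in SKOV3 at 40 mg/L (log2 0.32, SE 0.06, adjusted p = 4.23e-05) and in A2780 at 20 mg/L (log2 0.50, SE 0.11, adjusted p = 0.00085) and 40 mg/L (log2 0.67, SE 0.11, adjusted p = 3.94e-05).

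MCOLN1 encodes the calcium channel mucolipin 1 of the lysosomal membrane. It had 11.2, 9.45 and 9.83 CPM in SKOV3 DMSO libraries, 12.6, 8.85 and 16.2 CPM at 20 mg/L and 18.8, 22.3 and 15.7 CPM at 40 mg/L. Its A2780 libraries had 22.2, 21.1 and 28.4 CPM with DMSO, 33.5, 27.5 and 29.9 CPM at 20 mg/L and 33.5, 31.9 and 36.3 CPM at 40 mg/L. The SKOV3 libraries at 20 mg/L were scattered on both sides of DMSO, and those at 40 mg/L were above DMSO (log2 0.90, SE 0.21, adjusted p = 0.00716), as in A2780 (log2 0.49, SE 0.10, adjusted p = 0.000176). NPC2, which hands cholesterol to NPC1 inside the lysosome, had 13.5, 16.3 and 14.7 CPM in SKOV3 DMSO libraries, 14.4, 15.6 and 16.3 CPM at 20 mg/L and 16.3, 14.3 and 15.2 CPM at 40 mg/L. A2780 had 18.6, 13.9 and 17.97 CPM of NPC2 with DMSO, 23.8, 23.4 and 21.2 CPM at 20 mg/L and 22.6, 28.2 and 30.4 CPM at 40 mg/L. NPC2 overlapped between all SKOV3 groups (log2 0.05, SE 0.08, adjusted p = 0.652) and rose in A2780 at 20 mg/L (log2 0.43, SE 0.11, adjusted p = 0.00241) and 40 mg/L (log2 0.67, SE 0.11, adjusted p = 1.77e-05). NPC1 was called lower at 20 mg/L in SKOV3 (log2 -0.21, SE 0.06, adjusted p = 0.0212) and higher at 40 mg/L (log2 0.19, SE 0.06, adjusted p = 0.00639). The first of these calls was lost without replicate 1 (adjusted p = 0.116) or 2 (0.0733) at 20 mg/L or DMSO replicate 2 (0.0731) or 3 (0.0786), and the second without DMSO replicate 1 (0.0502). In A2780 it was called higher at both doses, at log2 0.52 and 0.55. CD63, a tetraspanin of late endosomes, was called lower in SKOV3 at 40 mg/L by log2 -0.15, a call lost without replicate 1 (adjusted p = 0.135) or 2 (0.0754) at that dose or DMSO replicate 2 (0.061).

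The vacuolar ATPase pumps protons into the lysosome. Of its 4 members, 2 were called higher in SKOV3 and 3 in A2780 at 40 mg/L, and none was called lower in the dose comparisons with DMSO. All genes had 26.4% called higher in SKOV3 and 17.7% in A2780 at 40 mg/L. ATP6V1A, the catalytic subunit, had 18.6, 18.2 and 19.4 CPM in SKOV3 DMSO libraries, 21.6, 20.1 and 21.6 CPM at 20 mg/L and 32.2, 35.98 and 32.7 CPM at 40 mg/L. In A2780 it had 28.3, 31.96 and 32.1 CPM with DMSO, 42.1, 39.7 and 37.8 CPM at 20 mg/L and 40.01, 42.4 and 39.6 CPM at 40 mg/L. All daphnetin libraries were above DMSO in both lines. Its rise at 40 mg/L was 1.8-fold in SKOV3 (log2 0.85, SE 0.07, adjusted p = 1.65e-12) and 1.3-fold in A2780 (log2 0.38, SE 0.07, adjusted p = 0.000118). ATP6AP1 was called in SKOV3 alone at 40 mg/L (log2 0.34), and ATP6V1H and ATP6V0D1 in A2780 alone (log2 0.37 and 0.48); the difference between lines was called for none of the 3. The ATP6V0D1 call was lost without replicate 3 at 40 mg/L (adjusted p = 0.051).

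Cargo receptors link material marked for degradation to the ATG8 proteins on the growing membrane. Of the 5 receptors, 2 were called higher and 1 lower in SKOV3 and 5 higher in A2780 at 40 mg/L. The SKOV3 shares were 40% and 20%, with a median log2 of -0.02, beside 26.4% and 25.6% of all genes. In A2780 17.7% of all genes were called higher and 19.2% lower. SQSTM1 (p62, chr5:179806398-179838078, plus strand), which binds ubiquitinated proteins, had the highest fold change of any member in SKOV3. It had 160.5, 172 and 164 CPM in SKOV3 DMSO libraries, 245, 249 and 255 CPM at 20 mg/L and 498, 547 and 566 CPM at 40 mg/L. In A2780 it had 73.3, 67.2 and 71.8 CPM with DMSO, 143, 165 and 146 CPM at 20 mg/L and 152, 142 and 150.5 CPM at 40 mg/L. The 3 SKOV3 groups did not overlap: SQSTM1 was 1.51-fold higher at 20 mg/L (log2 0.59, SE 0.05, adjusted p = 3.29e-10) and 3.26-fold at 40 mg/L (log2 1.71, SE 0.05, adjusted p = 1.98e-23). In A2780 both doses gave about the same level, 2.12-fold at 20 mg/L (log2 1.09, SE 0.07, adjusted p = 2.73e-13) and 2.07-fold at 40 mg/L (log2 1.05, SE 0.07, adjusted p = 4.97e-13). C5orf45, on the opposite strand, overlaps 20.7% of SQSTM1's exonic bases. It moved by log2 1.03 in SKOV3 and -0.06 in A2780 at 40 mg/L, and since the strand setting of the counting is not given, reads of both genes cannot be told apart in the overlap.

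OPTN (chr10:13099449-13138308, plus strand), optineurin, a receptor for damaged mitochondria and bacteria, differed most between the lines at 40 mg/L. It had 535, 503 and 532 CPM in SKOV3 DMSO libraries, 530.3, 547 and 549.8 CPM at 20 mg/L and 515, 499 and 529.7 CPM at 40 mg/L. In A2780 it had 101, 109 and 113 CPM with DMSO, 219.9, 251 and 206 CPM at 20 mg/L and 258, 242 and 232 CPM at 40 mg/L. The SKOV3 libraries with daphnetin overlapped DMSO (log2 -0.02, SE 0.05, adjusted p = 0.768 at 40 mg/L), while all treated A2780 libraries were well above those with DMSO. The A2780 rise was 2.08-fold at 20 mg/L (log2 1.06, SE 0.07, adjusted p = 1.95e-12) and 2.24-fold at 40 mg/L (log2 1.17, SE 0.07, adjusted p = 2.77e-13). Even so, the treated A2780 libraries stayed below the level of SKOV3 with DMSO. CALCOCO2 (NDP52) had the same pattern at smaller size, at log2 -0.02 in SKOV3 and 0.44 in A2780 at 40 mg/L. NBR1, a receptor related to SQSTM1, was called higher in both lines at 40 mg/L, at log2 0.17 in SKOV3 and 0.55 in A2780. TAX1BP1 was called lower in SKOV3 at 20 mg/L (log2 -0.23, SE 0.05, adjusted p = 0.00166) and 40 mg/L (log2 -0.38, SE 0.05, adjusted p = 8.64e-08) and higher in A2780 at 40 mg/L (log2 0.32, SE 0.07, adjusted p = 0.000594).

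**Figure D3:**
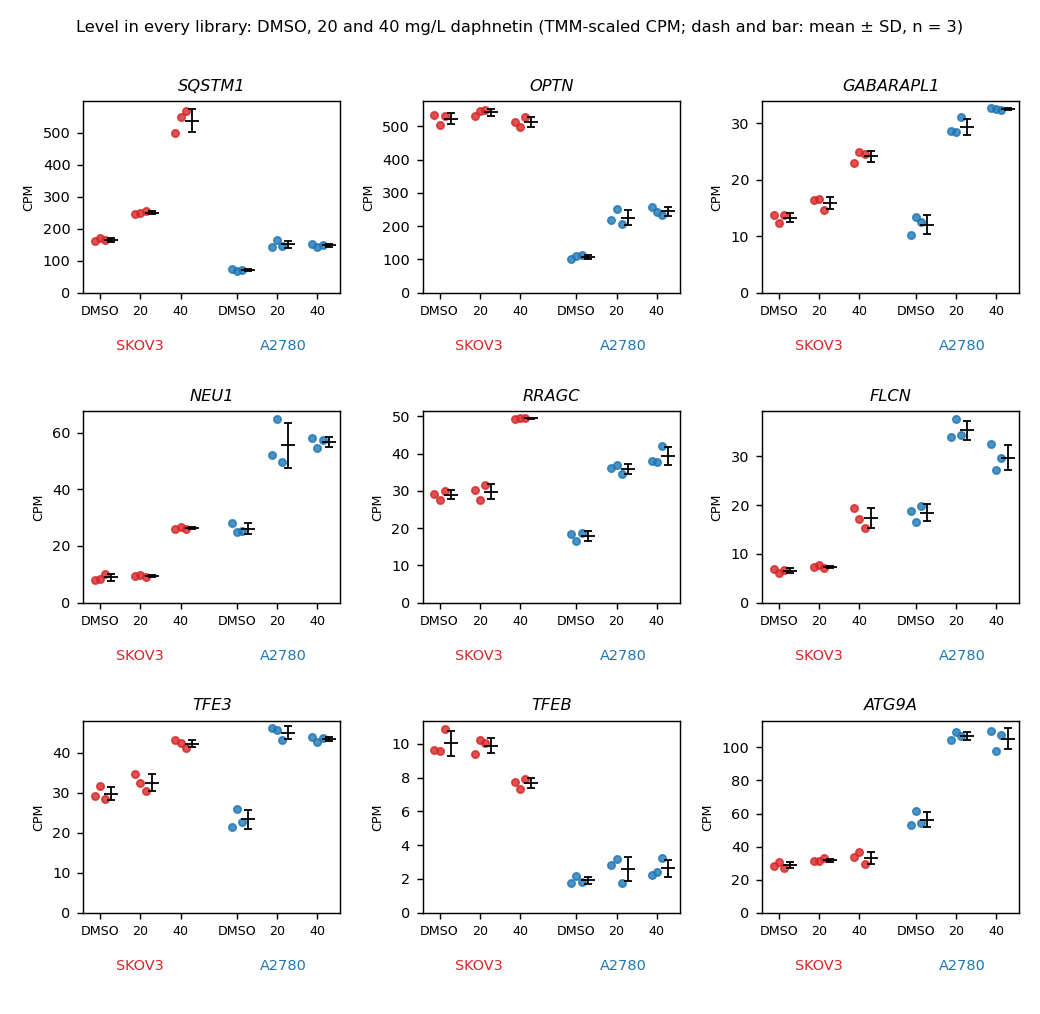
Level of 9 members in each library (points, TMM-scaled CPM) with the mean ± SD of 3 libraries beside them, in SKOV3 (red) and A2780 (blue), for DMSO, 20 and 40 mg/L. SQSTM1, NEU1, RRAGC and FLCN in SKOV3 are highest at 40 mg/L, whereas in A2780 both doses lie clear above DMSO.

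ATG8 proteins are coupled to lipid in the autophagosome membrane. Of the 5 genes of this family, 3 were called higher in SKOV3 and 4 in A2780 at 40 mg/L, and none lower. The shares of all genes called higher were 26.4% in SKOV3 and 17.7% in A2780. GABARAPL1 (chr12:10212458-10223130, plus strand) had the highest fold change of any member in A2780. It had 13.8, 12.3 and 13.8 CPM in SKOV3 DMSO libraries, 16.4, 16.6 and 14.7 CPM at 20 mg/L and 22.98, 24.9 and 24.6 CPM at 40 mg/L. In A2780 it had 10.2, 13.3 and 12.6 CPM with DMSO, 28.7, 28.4 and 31.02 CPM at 20 mg/L and 32.7, 32.6 and 32.4 CPM at 40 mg/L. Daphnetin libraries did not overlap DMSO in either line. In A2780 the rise was 2.43-fold at 20 mg/L (log2 1.28, SE 0.09, adjusted p = 3.76e-12) and 2.67-fold at 40 mg/L (log2 1.42, SE 0.09, adjusted p = 3.72e-13). In SKOV3 it was 1.82-fold at 40 mg/L (log2 0.86, SE 0.08, adjusted p = 2e-11). The small SKOV3 rise at 20 mg/L (log2 0.25, SE 0.08, adjusted p = 0.036) was lost without any 1 of 5 libraries, with adjusted p from 0.0586 without DMSO replicate 1 to 0.198 without DMSO replicate 2, and with all libraries under DESeq2 (0.056) or without a filter on low counts (0.0515). The others were replicates 1 (0.13) and 2 (0.135) at 20 mg/L and DMSO replicate 3 (0.0683). Of its 50-base subsequences, 0.734% also occur in GABARAPL3.

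MAP1LC3B, whose lipid-bound product LC3-II is the usual marker of autophagosomes, had 50.2, 48.1 and 52.4 CPM in SKOV3 DMSO libraries, 55.8, 51.9 and 65.9 CPM at 20 mg/L and 82.1, 80.8 and 77.8 CPM at 40 mg/L. In A2780 it had 24.03, 25.1 and 23.9 CPM with DMSO, 31.2, 31.3 and 29.8 CPM at 20 mg/L and 28.8, 32.1 and 33.7 CPM at 40 mg/L. Libraries at 40 mg/L were above DMSO in both lines, 1.6-fold in SKOV3 (log2 0.68, SE 0.06, adjusted p = 6.45e-11) and 1.28-fold in A2780 (log2 0.35, SE 0.08, adjusted p = 0.000473). At 20 mg/L the SKOV3 libraries overlapped DMSO (log2 0.20, SE 0.07, adjusted p = 0.0443), and the call at that dose was lost without replicate 1 (adjusted p = 0.0603) or 3 (0.435) at 20 mg/L or DMSO replicate 1 (0.114), 2 (0.21) or 3 (0.0701), and with all libraries under DESeq2 (0.077) or RLE size factors (0.0569). Of the 50-base subsequences of MAP1LC3B, 4.82% also occur in its near copy MAP1LC3B2. GABARAPL2 was called higher at 40 mg/L in SKOV3 (log2 0.18) and A2780 (log2 0.25), and both calls were lost with some libraries left out. In SKOV3 these were replicate 3 at 40 mg/L (adjusted p = 0.0742) and DMSO replicate 1 (0.2), and DESeq2 did not call it either (0.055). In A2780 they were replicates 2 (0.111) and 3 (0.0906) at 40 mg/L and DMSO replicates 1 (0.168) and 2 (0.0719). GABARAP was called in A2780 (log2 0.34 at 20 mg/L and 0.47 at 40 mg/L), the first call being lost without replicate 1 at 20 mg/L (adjusted p = 0.0558), and not against DMSO in SKOV3. A same-strand transcript, CTD-2545G14.7, overlaps 30.5% of the exonic bases of GABARAP. It moved by log2 0.36 at 20 mg/L and 0.49 at 40 mg/L in A2780, and by 0.11 at 40 mg/L in SKOV3. CTD-2545G14.6, on the opposite strand, overlaps 25.2% and moved at 40 mg/L by log2 0.35 in A2780 and -0.02 in SKOV3. Reads of these overlaps cannot be assigned to 1 gene from these counts. MAP1LC3A was scarce, 0.9699 ± 0.295 CPM in SKOV3 DMSO libraries and 1.58 ± 0.324 CPM in A2780 DMSO libraries (SD, n = 3 each), and was not called in any comparison with DMSO. Per kilobase, GABARAPL1 in A2780 had 7.97 ± 0.0377 CPM at 40 mg/L, against 2.94 ± 0.408 CPM with DMSO, and MAP1LC3B had 5.93 ± 0.475 CPM at 40 mg/L, against 4.58 ± 0.124 CPM with DMSO. GABARAPL1 thus stood below MAP1LC3B with DMSO and above it at 40 mg/L in A2780, by level per length. The length is that of all annotated exons of a gene, which may differ from the transcript expressed. In CPM not divided by length, the A2780 libraries at 40 mg/L overlapped, at 32.57 ± 0.154 for GABARAPL1 and 31.51 ± 2.52 for MAP1LC3B.

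The 12 genes of autophagosome initiation and elongation were the most mixed group. SKOV3 had 7 higher and 1 lower calls at 40 mg/L. A2780 had 4 higher and 4 lower calls at 20 mg/L, and 3 higher and 0 lower calls at 40 mg/L. Of all genes in SKOV3, 26.4% were called higher and 25.6% lower at 40 mg/L. The A2780 shares were 18.1% and 18.9% at 20 mg/L, and 17.7% and 19.2% at 40 mg/L. ATG13, a scaffold of the ULK1 kinase complex, had 17.8, 17.99 and 16.7 CPM in SKOV3 DMSO libraries, 20.8, 21.1 and 21.4 CPM at 20 mg/L and 27.8, 27.7 and 29.6 CPM at 40 mg/L. In A2780 it had 13, 13.8 and 12.2 CPM with DMSO, 14.8, 15.4 and 14.5 CPM at 20 mg/L and 17.1, 16.7 and 15.8 CPM at 40 mg/L. The 3 groups did not overlap in either line, with calls in SKOV3 at 20 mg/L (log2 0.27, SE 0.07, adjusted p = 0.00912) and 40 mg/L (log2 0.70, SE 0.07, adjusted p = 1.25e-10) and in A2780 at 40 mg/L (log2 0.32, SE 0.09, adjusted p = 0.00579). The ATG13 call in SKOV3 at 20 mg/L was lost when DMSO replicate 3 was left out (adjusted p = 0.0813). ULK1, the kinase itself, rose at 40 mg/L in SKOV3 (log2 0.51, SE 0.08, adjusted p = 1.34e-06) and at 20 mg/L in A2780 (log2 0.35, SE 0.10, adjusted p = 0.00522), with log2 0.24 and an adjusted p of 0.0533 at 40 mg/L in A2780.

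ATG9A encodes the scramblase that brings membrane to the growing autophagosome. It had 28.1, 30.8 and 27.2 CPM in SKOV3 DMSO libraries, 31.3, 31.2 and 32.8 CPM at 20 mg/L and 33.8, 36.5 and 29.5 CPM at 40 mg/L. In A2780 it had 52.8, 61.5 and 54.3 CPM with DMSO, 104, 109.5 and 107 CPM at 20 mg/L and 109.9, 97.9 and 108 CPM at 40 mg/L. All A2780 daphnetin libraries were well above DMSO, 1.89-fold at 20 mg/L (log2 0.92, SE 0.07, adjusted p = 1.46e-11) and 1.85-fold at 40 mg/L (log2 0.89, SE 0.07, adjusted p = 3.36e-11). The SKOV3 groups overlapped at 40 mg/L (log2 0.22, SE 0.07, adjusted p = 0.0085), and that call was lost without replicate 2 at 40 mg/L (adjusted p = 0.095) or DMSO replicate 3 (0.0659). ABCB6 lies on the same strand and overlaps 34.9% of the exonic bases of ATG9A. It moved by log2 1.01 in A2780, to 91.1 CPM at 40 mg/L against 44.5 CPM with DMSO, and by 0.28 in SKOV3, to 9.25 CPM against 7.68 CPM with DMSO, and reads of the overlap cannot be assigned to either gene from these counts.

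ATG12, the ubiquitin-like protein that is joined to ATG5, had 104, 114 and 107 CPM in SKOV3 DMSO libraries, 114, 105 and 111 CPM at 20 mg/L and 168, 176 and 172 CPM at 40 mg/L. In A2780 it had 57.1, 59.3 and 60.8 CPM with DMSO, 65.3, 61.9 and 65.02 CPM at 20 mg/L and 61.9, 57.1 and 59.2 CPM at 40 mg/L. It rose in SKOV3 at 40 mg/L without overlap with the other groups (log2 0.67, SE 0.05, adjusted p = 6.4e-13) and was not called in A2780 at 40 mg/L, where it overlapped DMSO (log2 -0.01, SE 0.07, adjusted p = 0.918). ATG7, which activates ATG12, was called lower at 40 mg/L in SKOV3 (log2 -0.33, SE 0.07, adjusted p = 0.000354) and at 20 mg/L in A2780 (log2 -0.37, SE 0.11, adjusted p = 0.00869). VGLL4, on the opposite strand, overlaps 18.1% of the exonic bases of ATG7 and moved by log2 -0.05 in SKOV3 at 40 mg/L and -0.46 in A2780 at 20 mg/L. ATG5 was called lower in A2780 at 20 mg/L, with 10.8, 11.7 and 9.63 CPM against 15.8, 13.2 and 16.2 CPM with DMSO (log2 -0.50, SE 0.11, adjusted p = 0.000469), and stood at 12.01, 14.2 and 14.9 CPM at 40 mg/L (log2 -0.15, SE 0.11, adjusted p = 0.281). AL022067.1, which overlaps 10.7% of its exonic bases on the same strand, moved by log2 -0.40 in A2780 at 20 mg/L. ATG16L1, its partner, was called higher in SKOV3 at 40 mg/L (log2 0.26, SE 0.06, adjusted p = 0.000347) and lower in A2780 at 20 mg/L (log2 -0.24, SE 0.08, adjusted p = 0.0149). The A2780 call was lost without replicate 3 at 20 mg/L (adjusted p = 0.0637) or DMSO replicate 1 (0.0721).

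UVRAG, a subunit of the lipid kinase complex that acts late in autophagy, had the largest fall of any member in the comparisons with DMSO. In A2780 it had 8.77, 9.398 and 7.08 CPM with DMSO, 6.03, 5.93 and 5.85 CPM at 20 mg/L and 10.2, 8.31 and 10.8 CPM at 40 mg/L. The 20 mg/L libraries lay below both other groups, lower than DMSO (log2 -0.52, SE 0.13, adjusted p = 0.00187), and the 40 mg/L libraries were higher than those at 20 mg/L (log2 0.70, SE 0.13, adjusted p = 0.000282). The call between the doses held with any 1 library left out. BECN1, the core of that complex, was not called at either dose in either line, with log2 values from -0.04 to 0.09. ATG14, which directs the complex to early autophagosomes, was called in SKOV3 at 40 mg/L (log2 0.44) and in A2780 at 20 mg/L (log2 0.23). The A2780 call was lost without replicate 3 at 20 mg/L (adjusted p = 0.1) or DMSO replicate 1 (0.0696). WIPI1, which reads the lipid that the complex makes, was called higher in all 4 dose comparisons, at log2 0.52 in SKOV3 and 0.60 in A2780 at 40 mg/L. At 20 mg/L its call was lost in SKOV3 with DMSO replicate 3 left out (adjusted p = 0.0687) and in A2780 without replicate 1 at 20 mg/L (0.136) or DMSO replicate 1 (0.145). WIPI2 was called in none of the 4 (log2 0.05 to 0.20). ARSG, on the opposite strand, overlaps 24.3% of the exonic bases of WIPI1. It moved by log2 0.45 in SKOV3 and 0.56 in A2780 at 40 mg/L, and reads of both genes cannot be told apart in the overlap.

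The lines shared part of the response at 40 mg/L but often not its size. Of all genes tested, 26.4% were called higher in SKOV3 and 17.7% in A2780 at that dose. The share of all genes called higher in both lines was not counted. Of the 50 members tested in both lines, 25 were called higher in both, 7 higher in SKOV3 and not called in A2780, 7 higher in A2780 and not called in SKOV3, and 6 not called in either. CTSZ and TAX1BP1 were called lower in SKOV3 and higher in A2780, and TFEB, CD63 and ATG7 lower in SKOV3 and not called in A2780. These comparisons share no library. Across the 50 members, the log2 fold changes of the lines had a Pearson r of 0.409 and a Spearman rho of 0.301, a description over genes that are not independent. The correlation over all genes was not computed.

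The difference between the lines was itself tested, as the log2 change in SKOV3 minus that in A2780. At 40 mg/L the signed SKOV3 change was above the A2780 change in 11 of 51 members and below it in 18 (29.9% of all 23742 genes called, 14.3% above and 15.7% below). At 20 mg/L it was above in 3 and below in 17 (21.6% of all genes called, 11% above and 10.6% below). Of the 25 members called higher in both lines at 40 mg/L, 17 differed in size, 7 with the larger rise in SKOV3 and 10 with the larger rise in A2780. Among these, the difference was not called under some alternatives for MAP1LC3B (adjusted p up to 0.108), ATG13 (0.0715) and LAMP2 (up to 0.102). SQSTM1 rose more in SKOV3 (log2 0.64, SE 0.09, adjusted p = 1.87e-07), as did FLCN (log2 0.71, SE 0.13, adjusted p = 4.24e-05) and ATG12 (log2 0.66, SE 0.08, adjusted p = 2.32e-08). OPTN had the largest difference in the other direction (log2 -1.21, SE 0.09, adjusted p = 6.54e-14), followed by CTSZ, TFEB and TAX1BP1. At 20 mg/L SQSTM1 and FLCN stood the other way, with the larger rise in A2780 (log2 -0.50, SE 0.09, adjusted p = 2.84e-05 for SQSTM1; log2 -0.78, SE 0.14, adjusted p = 3.54e-05 for FLCN). The 3 members with the SKOV3 change above the A2780 change at 20 mg/L were UVRAG, ATG5 and ATG7, all called lower in A2780 at that dose. Without A2780 DMSO replicate 1 the count was 1.

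**Figure D4:**
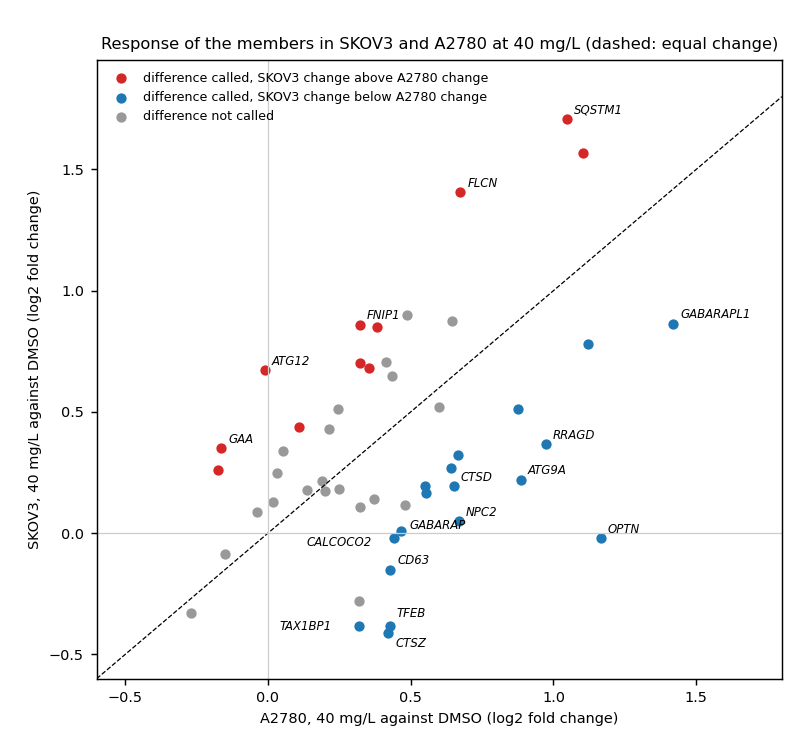
Log2 fold change at 40 mg/L against DMSO in SKOV3 (vertical) and A2780 (horizontal) for the 50 members tested in both lines; the dashed line marks equal change. By the test of the difference, the signed SKOV3 change was above the A2780 change for red points and below it for blue points. Names are given where that difference is above 0.45 in size. SQSTM1 and FLCN lie high above the line and OPTN far to its right at a SKOV3 change near 0.

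With DMSO alone the lines already differed in most members. SKOV3 was called higher than A2780 in 30 of 51 and lower in 18, where 78.3% of all genes were called (41.2% higher and 37.2% lower). All 5 cargo receptors were higher in SKOV3, among them OPTN, 523 ± 17.4 CPM in SKOV3 and 108 ± 6.28 CPM in A2780 (log2 2.28, SE 0.07, adjusted p = 7.83e-30). All 3 transcription factors were higher too, MITF with 19.8 ± 1.33 CPM in SKOV3 and 0.104 ± 0.0991 CPM in A2780, and TFEB with 10.03 ± 0.732 CPM in SKOV3 and 1.92 ± 0.202 CPM in A2780 (log2 2.38, SE 0.15, adjusted p = 1.48e-17). FLCN, FNIP1, FNIP2, NEU1 and GLA were lower in SKOV3, at -1.49, -1.40, -0.82, -1.55 and -0.86 on the log2 scale. NEU1 in SKOV3 reached 26.3 ± 0.328 CPM at 40 mg/L, about the level of A2780 with DMSO, 26.1 ± 1.91 CPM (SD, n = 3 each).

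Per kilobase of exon, PSAP (207 ± 6.23 CPM), CTSL (128 ± 4.67 CPM) and OPTN (102 ± 3.39 CPM) were the most abundant members in SKOV3 with DMSO, and CTSL (84.2 ± 14.9 CPM), PSAP (57.1 ± 3.83 CPM) and CD63 (34.6 ± 6.62 CPM) in A2780 with DMSO. Values are means ± SD of 3 libraries, and CTSL and PSAP led in both lines. FNIP2 (0.459 ± 0.0977 CPM per kilobase), MAP1LC3A (0.5504 ± 0.167) and FLCN (0.669 ± 0.0485) were the scarcest in SKOV3, and in A2780 MITF (0.0144 ± 0.0138) and TFEB (0.3403 ± 0.0357). Among the transcription factors TFE3 was the most abundant in both lines, at 6.95 ± 0.395 CPM per kilobase in SKOV3 and 5.45 ± 0.566 in A2780.

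**Figure D5:**
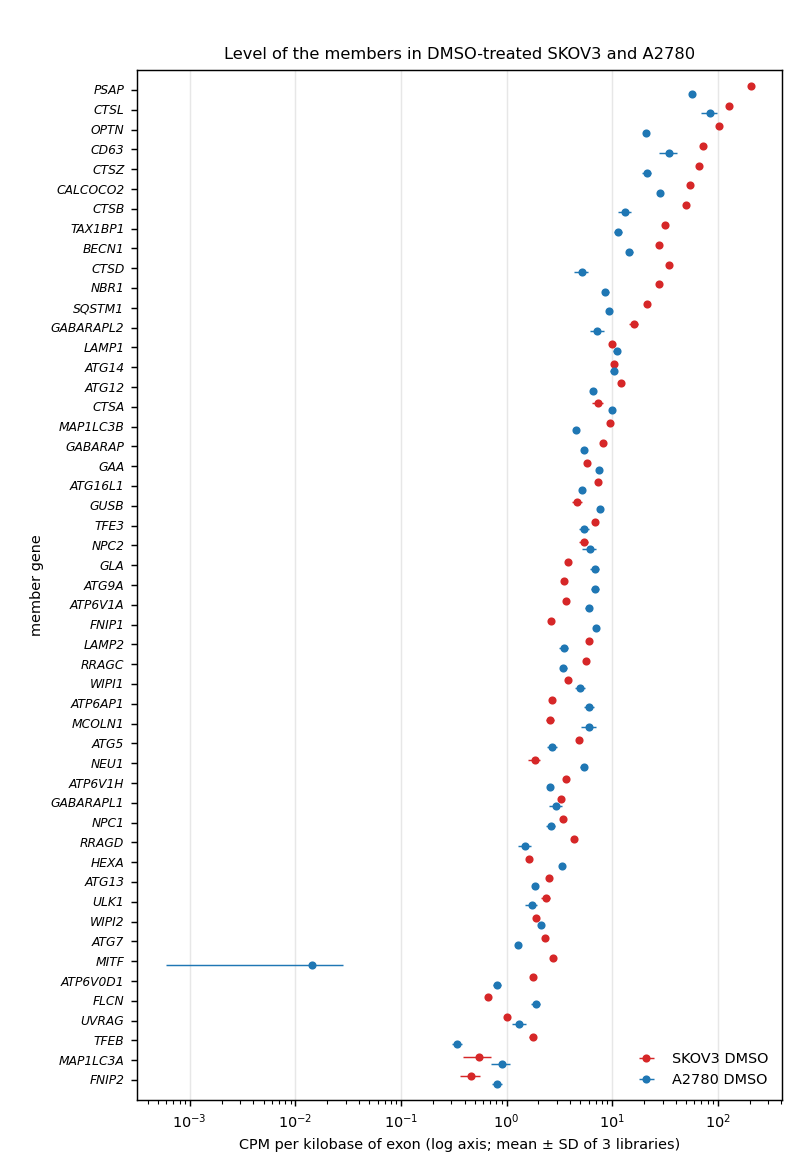
Level of the 51 genes per kilobase of exon in DMSO libraries (log axis; points are means and lines SD of 3 libraries) in SKOV3 (red) and A2780 (blue), sorted by the mean of both. PSAP and CTSL are at the top in both lines, and MITF in A2780 lies far below every other value.

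A further 175 genes of the same pathways, in 7 lists, were called higher more often than lower in both lines. These lists, like the members, were chosen with earlier results of these data known, so they are not independent support. In SKOV3 14 were called higher and 3 lower of 173 tested at 20 mg/L, which is 8.09% and 1.73%, beside 5.16% and 4.95% of all genes. At 40 mg/L 82 were higher and 24 lower (47.4% and 13.9%, beside 26.4% and 25.6% of all genes; median log2 0.17). In A2780 66 were called higher and 23 lower of 170 at 20 mg/L (38.8% and 13.5%, beside 18.1% and 18.9% of all genes). At 40 mg/L 68 were higher and 20 lower (40% and 11.8%, beside 17.7% and 19.2% of all genes; median log2 0.15). The vacuolar ATPase list had 12 of 20 called higher and 1 lower in SKOV3 and 8 higher and 1 lower in A2780 at 40 mg/L. The list of mTORC1 components at the lysosome had 11 higher and 6 lower of 28 in SKOV3 (39.3% and 21.4%) and 8 higher and 5 lower in A2780 (28.6% and 17.9%) at that dose, its lower shares being near those over all genes.

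At 40 mg/L in SKOV3 the called pathway genes of highest fold change were TRIM16, a ubiquitin ligase that acts on damaged lysosomes (45.5 CPM at 40 mg/L and 17.7 CPM with DMSO, log2 1.37, SE 0.07), TPCN2, a lysosomal ion channel (log2 1.22), and PLEKHM1, which tethers autophagosomes to lysosomes (log2 1.13). DDIT4, an inhibitor of mTORC1 induced by stress, was lower, with 57.5 CPM at 40 mg/L and 105.9 CPM with DMSO (log2 -0.88, SE 0.07), as were AP3B1 (log2 -0.76) and AKT1S1 (log2 -0.63). In A2780 they were CCPG1, a receptor for autophagy of the endoplasmic reticulum (279 CPM at 40 mg/L and 88.3 CPM with DMSO, log2 1.64, SE 0.16), the sialic acid exporter SLC17A5 (log2 1.15) and ZFYVE1 (log2 1.09). RPTOR, the substrate-binding subunit of mTORC1, was lower, with 26.9 CPM at 40 mg/L and 42.8 CPM with DMSO (log2 -0.69, SE 0.08), as were the lysosomal acid lipase LIPA (log2 -0.66) and ATG16L2 (log2 -0.59).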

How the data were processed

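RNA was sequenced from 18 libraries prepared with a kit for stranded mRNA, as the labels' protocols state. The authors deposited raw counts per gene, whole numbers that are not normalized, with gene positions and exonic lengths. The submitters' processing notes list Trimmomatic 0.36 and the genome build GRCh38. The sources used here give no aligner, counting program or strand setting. In every library 74.3% to 77.0% of counts from 1 to 12 were even, as when both mates of a pair are counted, so depth overstates the number of fragments, and counting error is the only error that depth limits. The labels number the replicates without calling them separate cultures, so p-values measure the spread between these libraries. No pair of replicates matched within sampling noise.

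Each line was fitted alone (9 libraries, 6 residual degrees of freedom) with edgeR 4.0.16 in R 4.3.3: TMM, filterByExpr, robust quasi-likelihood F test, Benjamini-Hochberg adjustment over all genes tested, two-sided. Differences between lines came from a fit of all 18 libraries (12 residual degrees of freedom). CPM values are scaled by TMM over all 18 libraries. The script was tested on simulated counts. Values in every library are printed for 8 fixed members and for the 20 members of largest called change at 40 mg/L among 28 called with a log2 change of at least 0.5 in either direction at any dose, 23 in all; others outside this rule appear by role or were chosen after their values were seen. Pathway genes were named by the 3 largest called changes each way, with at least 5 CPM. The members and lists were chosen with earlier results of these data known. Alternatives were DESeq2 1.42.0, other size factors (RLE), no filter, only the compared groups, the replicate number as a block, and each library left out. After seeing the data, halved counts and A2780 without 2 libraries were added.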

Additional observations from a re-analysis of the deposited data

Results flagged for a closer look

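The values here are the members whose change against DMSO differed between the lines by the test of that difference, given as the log2 change in SKOV3 minus that in A2780.

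At 20 mg/L the SKOV3 change was below the A2780 change in 17 members. Among hydrolases the difference was -0.31 for CTSA, -0.52 for GLA and -1.01 for NEU1, and among membrane proteins -0.54 for LAMP2 and -0.73 for NPC1. For TFE3 it was -0.82, and in the RAG and folliculin branch it was -0.97 for RRAGC, -0.54 for RRAGD, -0.78 for FLCN and -0.52 for FNIP1. All 5 cargo receptors were included, with -0.50 for SQSTM1, -0.46 for NBR1, -1.02 for OPTN, -0.32 for TAX1BP1 and -0.45 for CALCOCO2. GABARAPL1 had -1.03 and ATG9A -0.78. The SKOV3 value was above the A2780 value for UVRAG at 0.51, ATG5 at 0.36 and ATG7 at 0.45. The CTSA call was lost without SKOV3 replicate 3 at 20 mg/L (adjusted p = 0.0787) or SKOV3 DMSO replicate 2 (0.137). That of UVRAG was lost without any 1 of 4 libraries and that of ATG5 without any 1 of 9, with adjusted p up to 0.0917 and 0.127.

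At 40 mg/L the SKOV3 change was above the A2780 change for GAA at 0.49, NEU1 at 0.44, ATP6V1A at 0.44, FLCN at 0.71, FNIP1 at 0.52, SQSTM1 at 0.64, MAP1LC3B at 0.30, ATG13 at 0.35, ATG14 at 0.31, ATG12 at 0.66 and ATG16L1 at 0.41. It was below the A2780 change among the cathepsins, at -0.48 for CTSD, -0.40 for CTSL and -0.86 for CTSZ, and among membrane and lipid export genes, at -0.37 for LAMP2, -0.60 for CD63, -0.38 for NPC1 and -0.64 for NPC2. TFEB had -0.84 and TFE3 -0.39, RRAGC -0.37 and RRAGD -0.63. The remaining differences were -0.41 for NBR1, -1.21 for OPTN, -0.73 for TAX1BP1, -0.49 for CALCOCO2, -0.48 for GABARAP, -0.58 for GABARAPL1 and -0.69 for ATG9A. The call was lost with single libraries left out for CD63 (adjusted p up to 0.0974), LAMP2 (up to 0.102) and MAP1LC3B (up to 0.108). With all libraries it was also lost without a filter on low counts for CD63 (0.0654), MAP1LC3B (0.0565) and ATG13 (0.0715), and under DESeq2 for MAP1LC3B (0.0629).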

How the results depend on the processing

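No called fold change among the members recomputed changed sign under an alternative. Values that were not called did in places, such as the line difference of MITF, nearly absent in A2780, which ran from -1.23 to 0.66 at 20 mg/L and from -1.31 to 0.03 at 40 mg/L. DESeq2, RLE size factors, no filter and a fit of only the compared groups left every count of called members within 1.5 times its value. With the replicate number as a block the members called at 40 mg/L were 35 higher and 5 lower in SKOV3 and 33 higher and 0 lower in A2780. Among the members recomputed, 4 calls were lost under the block, those of LAMP1 in A2780 at 40 mg/L (adjusted p = 0.0505), CD63 in the line difference at 40 mg/L (0.0802), and between the doses ATP6V1H in A2780 (0.0685) and MCOLN1 in SKOV3 (0.12). Same-numbered libraries did not deviate together (correlations of -0.02 to 0.05 in SKOV3 and -0.06 to 0.03 in A2780), so the numbers were not taken as pairs.

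Without both A2780 libraries of lowest mitochondrial share, the A2780 calls against DMSO of CTSD at 20 mg/L (adjusted p = 0.0885) and of CTSA (0.121) and LAMP1 (0.0627) at 40 mg/L were lost. The A2780 count called lower at 40 mg/L was 1 with halved counts, and 1 without the 2 libraries of lowest mitochondrial share. With each library left out in turn it ran from 0 to 1, because ATG16L1, ATG7 or GAA was then called. The same exercise gave 30 to 33 members called higher in A2780 at 40 mg/L and 29 to 34 in SKOV3. In SKOV3 at 20 mg/L it gave 3 to 7 higher and 1 to 2 lower, with 1443 to 1741 of all genes called. Between the doses it gave 4 to 7 lower in SKOV3, and in A2780 1 to 9 higher and 1 to 2 lower with 1583 to 3500 of all genes. For the line difference at 20 mg/L it gave 1 to 3 members higher. The causes were not tested. Of 33 members called higher in SKOV3 at 40 mg/L, 28 kept the call with any 1 library left out, and of 34 in A2780, 29 did. With 3 libraries a group, low members such as MITF in A2780 and MAP1LC3A are limited by depth.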
